A study of Mus musculus with 7 samples.

Results

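Caudal eminence type interneurons are the inhibitory neurons that reach the cortex from the caudal ganglionic eminence, and they were picked here from single-cell RNA profiles of mouse cortex by marks on the raw counts. A barcode was kept with at least 500 detected genes and at most 10% of its unique molecular identifiers (UMIs, the tags that count RNA molecules) from mitochondrial genes. A kept barcode was a member with at least 2 UMIs summed over Adarb2, Htr3a, Npas1 and Prox1 and at least 1 UMI of Gad1, Gad2, Dlx1 or Dlx6os1. It also had to hold 0 UMIs of the medial eminence marks Lhx6, Sst and Nxph1, 0 of the division genes Top2a and Mki67, and at most 1 UMI of Neurod6, a gene of glutamatergic neurons. Of 50191 barcodes, 23005 were kept and 311 of these were members, which is 1.35% of the kept barcodes. The members thus were chosen by their own expression, so the levels of those 14 genes are descriptions. The 8 required genes stayed in the genotype fit, and nothing is read from their values there.

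The 4 mutant embryos (replicates 10, 11, 12 and 17) carried Emx1CreERT2 and Ash1lfl/fl, and the 3 control embryos (replicates 14, 15 and 16) carried Ash1lfl/fl without the Cre. Both groups thus had the floxed Ash1l alleles, came from 1 litter, and shared a dam that received tamoxifen at 100 mg/kg at E10.5 (embryonic day). The cortices were taken at E18.5 and run by Seq-Well, a microwell method, with 1 library for each embryo. Ash1l encodes a histone H3 lysine 36 methyltransferase. The Cre is driven by Emx1, a gene of dorsal forebrain progenitors, and at collection the members averaged 20.2 ± 15.0 Emx1 UMIs per 1000000 against 77.5 ± 11.3 in all other kept barcodes (SD over 7 embryos).

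Interneurons of the caudal eminence arise in the ventral forebrain and migrate tangentially into the cortex, where they form the cells that later make vasoactive intestinal peptide, reelin or cholecystokinin. The transcription factors Prox1, Nr2f2 and Sp8 and the serotonin receptor subunit Htr3a are widely used to tell them from interneurons of the medial eminence, which use Lhx6 and later make somatostatin or parvalbumin. Both kinds share the Dlx factors and the enzymes of GABA synthesis, Gad1 and Gad2.

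Libraries held 7083225 to 11859209 UMIs, and every pair of libraries differed by more than sampling noise. Median depth per embryo was 1194 to 2416.5 UMIs in members and 1241.5 to 2133 UMIs in all kept barcodes. Summed over an embryo, members gave 116974, 77554, 72244 and 62839 UMIs in mutants 10, 11, 12 and 17, against 138028, 136125 and 114416 UMIs in controls 14, 15 and 16. The median member held 1506 ± 310 UMIs in mutants and 2059 ± 338 UMIs in controls (SD over 4 and 3 embryos, two-sided exact permutation p = 0.114). Among the kept barcodes, 24 barcode sequences occurred in more than 1 library. None of the 311 members was a member in another library too, and 2 were kept in another library. Levels below are counts per 1000000 (CPM), the UMIs of a gene per 1000000 UMIs of the summed cells of an embryo, with the SD over embryos. CPM does not correct for gene length and is compared here only for 1 gene between groups of cells. The 7 embryos are of 1 litter, so p-values measure the spread between its embryos.

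The 4 positive marks were spread unevenly over the members. Adarb2, which encodes a relative of the RNA-editing deaminases, was detected in 198 of 311 members and the homeodomain factor Prox1 in 185. Htr3a was detected in 141 members and the bHLH-PAS factor Npas1 in 118. A single mark was found in 93 members, a pair in 127, 3 marks in 69 and all 4 in 22. Prox1 alone was the most frequent pattern, in 39 members, followed by Adarb2 alone in 33 and the pair of Adarb2 and Prox1 in 31. Among the inhibitory marks Dlx1 was detected in 249 members, Dlx6os1 in 216, Gad1 in 151 and Gad2 in 95. A total of 50 members passed that step on a single UMI, and 33 members carried the 1 UMI of Neurod6 that the rule allows.

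**Figure D1:**
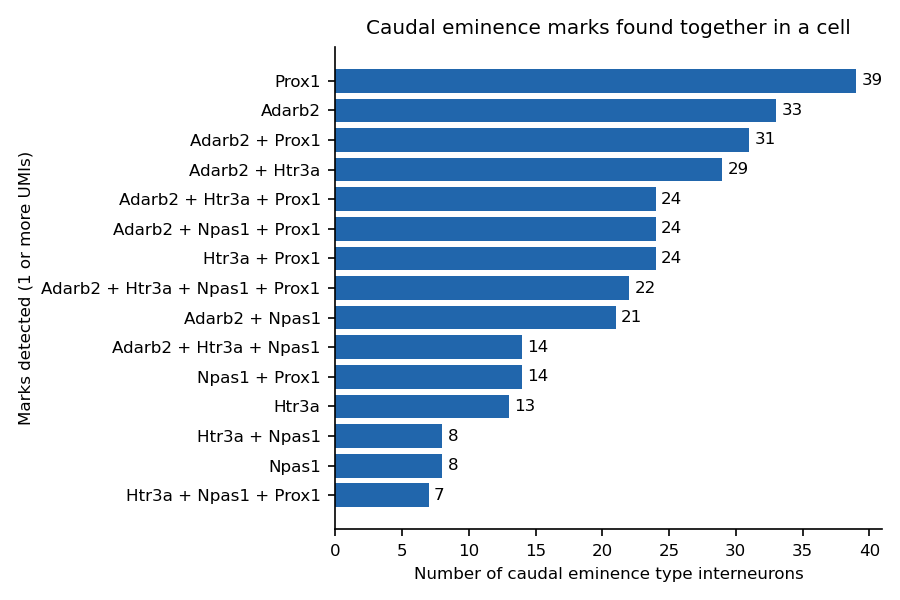
Number of caudal eminence type interneurons (horizontal axis) with each combination of the 4 positive marks detected at 1 or more UMIs (vertical axis). Prox1 alone was found in 39 cells and all 4 marks together in 22.

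Levels of some genes outside the rule differed with the mark sum, around the threshold. The mark sum was exactly 2 in 115 members and 3 or more in 196, and 286 kept barcodes with a sum of 1 met every other condition. Nr2f2, an orphan nuclear receptor of the caudal eminence that the rule did not use, averaged 312 CPM at a sum of 3 or more, 194 CPM at a sum of 2 and 155 CPM in the barcodes just outside. The cannabinoid receptor gene Cnr1 averaged 818, 404 and 311 CPM in the same order. Neurod2, a glutamatergic factor, ran the other way with 73.6, 101 and 160 CPM. Other genes were alike at sums of 3 or more and 2: Nr2f1 averaged 494, 492 and 287 CPM in the same order, and Synpr 38.5, 38.0 and 29.4 CPM.

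Genes of caudal eminence interneurons outside the rule were mostly present, and the late peptide genes were nearly undetected. Members were set beside medial eminence gated cells (339 barcodes with at least 2 UMIs of Lhx6, Sst and Nxph1, none of the 4 caudal marks, and the same other limits) and excitatory gated cells (3824 barcodes with at least 2 UMIs of Neurod6 and none of the inhibitory marks). Nr2f2 was at 316, 193, 263 and 334 CPM in members of mutants 10, 11, 12 and 17, and at 377, 154 and 253 CPM in members of controls 14, 15 and 16. Every embryo was above its own medial gated cells, which averaged 24.3 ± 17.8 CPM against 270 ± 78.8 CPM in members. A Nr2f2 UMI was found in 38.6% of members, 4.42% of medial gated cells and 9.44% of excitatory gated cells, at embryo medians of 1194 to 2416.5, 1370.5 to 2136 and 1910.5 to 4791 UMIs per cell. The zinc finger factor Sp8 averaged 93.1 ± 33.5 CPM in members and 4.49 ± 5.71 CPM in medial gated cells. Cnr1 averaged 665 ± 111 CPM in members, 125 ± 56.6 CPM in medial gated cells and 335 ± 34.4 CPM in excitatory gated cells.

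Of 22 further caudal eminence genes on the list, 16 were detected in members and 8 were above the medial gated cells in all 7 embryos. Over all 4858 genes that averaged at least 50 CPM in the higher of these populations, 3.81% were above in all 7 embryos and 4.03% below. At that level the list had 6 genes, of which 4, namely Nr2f2, Nr2f1, Sp8 and Cnr1, were above. The other 4 of the 8, Synpr, Cxcl14, Egln3 and Igf1, lay below it and have no share to be read against. Synpr, which encodes the vesicle protein synaptoporin, averaged 37.7 ± 19.5 CPM in members and 2.62 ± 4.53 CPM in medial gated cells. The chemokine gene Cxcl14 averaged 23.2 ± 10.1 and 2.04 ± 5.39 CPM in members and medial gated cells. The growth factor gene Igf1 averaged 36.3 ± 20.2 CPM in members and 6.39 ± 9.52 CPM in medial gated cells. Several genes of mature subtypes were close to nothing. Vip had 2 UMIs and Calb2 had 7 UMIs over all members, and Lamp5, Sncg, Scgn, Crh, Chrna2 and Cplx3 had 0. Cck, the cholecystokinin gene, had 10 UMIs in members with an Adarb2 UMI and 7 in members without one. Cxcl14 had 14 and 2 UMIs in the same order. Against all other kept barcodes, 7 of the 22 genes were above and 4 below in all 7 embryos. Of the 7 at 50 CPM there, 4 were above and 3 below, beside 6.41% and 6.96% of all 4871 genes at that level. Reln, the secreted glycoprotein of later neurogliaform cells, averaged 149 ± 90.3 CPM in members and 470 ± 115 CPM in all other kept barcodes. These contrasts describe cells chosen by expression and carry no test.

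**Figure D2:**
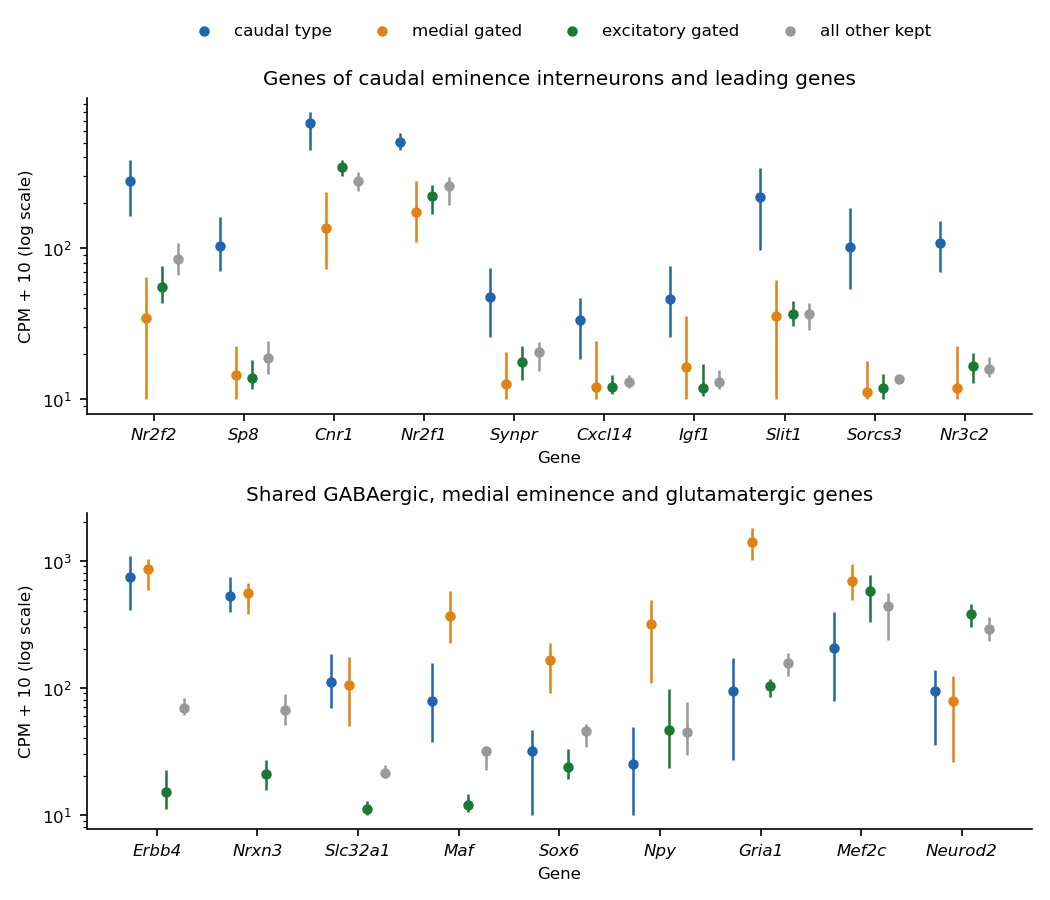
Levels of 19 genes (CPM plus 10, log axis) in caudal eminence type interneurons, medial eminence gated cells, excitatory gated cells and all other kept barcodes. Points are means and lines the lowest and highest of 7 embryos. Nr2f2 averaged 270 CPM in the first and 24.3 CPM in the second, while Gria1 averaged 83.7 and 1387 CPM.

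The genes with the largest ratio over all other kept barcodes, outside the rule, mixed shared inhibitory genes with some that the medial gated cells lacked. Members were above the other barcodes in all 7 embryos for 6.41% of 4871 genes at 50 CPM and below for 6.96%. Asic4, a member of the acid-sensing channel family, averaged 52.8 ± 29.8 CPM in members and 0.711 ± 0.409 CPM in all other barcodes, and had no UMI in medial gated cells. The sorting receptor gene Sorcs3 averaged 92.3 ± 51.2 CPM in members, 1.13 ± 2.99 CPM in medial gated cells and 3.61 ± 0.642 CPM in all other barcodes. Nr3c2, the mineralocorticoid receptor, averaged 98.0 ± 30.3 CPM in members and 1.81 ± 4.78 CPM in medial gated cells. Slit1, which encodes a secreted ligand of Robo receptors, averaged 207 ± 90.5 CPM in members and 25.6 ± 19.9 CPM in medial gated cells. The remaining leading genes against all other barcodes were Erbb4, Zbtb16, AW551984, Sp8, Nrxn3, Npas3, Slc32a1, Gm5607, Dlx1os, Gm14204 and Sox2ot. Gm14204 lies beside Slc32a1 on the opposite strand, and whether counting used strand is not given in the sources used here.

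Against medial gated cells the leading genes were Asic4, Sorcs3, Nr3c2, Sp8, Nr2f2, Rwdd3, Slit1, Wnt5a, Pdzrn3 and Pbx3. The Wnt ligand gene Wnt5a averaged 76.2 ± 19.8 CPM in members and 9.05 ± 15.3 CPM in medial gated cells. Pbx3, a homeodomain factor, averaged 113 ± 27.8 CPM in members and 18.1 ± 20.1 CPM in medial gated cells. In the other direction stood Nxph2, Cacng3, Calb1, Cntnap3, Npy, Neto1, Gria1, Tox2, Igfbp4 and Ptprt. Gria1, an AMPA receptor subunit, averaged 83.7 ± 53.9 CPM in members and 1387 ± 303 CPM in medial gated cells. The neuropeptide gene Npy averaged 15.0 ± 16.9 CPM in members and 309 ± 124 CPM in medial gated cells. The neurexophilin gene Nxph2 and the AMPA receptor auxiliary gene Cacng3 had 0 UMIs in members, and averaged 72.4 ± 38.2 and 64.2 ± 35 CPM in medial gated cells. Of 17 ionotropic and related receptor genes, 2 were above and 6 below the medial gated cells in all 7 embryos. Of the 10 at 50 CPM 1 was above and 6 were below. The 1 above was the cannabinoid receptor gene Cnr1, which is also on the caudal eminence list. The NMDA receptor subunit gene Grin2d averaged 45.1 ± 19.2 CPM in members and 2.68 ± 4.59 CPM in medial gated cells. It was higher in members in all 7 embryos, but lay below 50 CPM and has no share to be read against.

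Genes shared by inhibitory neurons were detected in both kinds of interneuron. All 12 of the further GABAergic genes were detected, 9 were above all other barcodes in all 7 embryos (8 of the 8 at 50 CPM), and 3, among them the zinc finger factor Sp9, were below the medial gated cells in all 7. Slc32a1, the vesicular GABA transporter, averaged 100 ± 37.8 CPM in members, 95.4 ± 44.3 CPM in medial gated cells and 1.17 ± 0.973 CPM in excitatory gated cells. Erbb4, the neuregulin receptor of migrating interneurons, averaged 732 ± 214 CPM in members, 848 ± 164 CPM in medial gated cells and 5.22 ± 3.98 CPM in excitatory gated cells. Of 16 further medial eminence genes, 6 were below the medial gated cells in all 7 embryos (5 of the 7 at 50 CPM), among them Maf at 68.5 ± 40.2 against 355 ± 129 CPM and Sox6 at 21.6 ± 15.6 against 156 ± 48.4 CPM. Among 20 migration genes all were detected. Dcx, a microtubule-associated protein of migrating neurons, averaged 1791 ± 172 CPM in members and 2581 ± 322 CPM in medial gated cells.

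Members also held RNA of genes listed for other cell types. The 31 members with the most radial glial UMIs held 76.2% of the 1094 UMIs of that list. The glutamatergic list was spread more widely, with at least 1 UMI in 248 members and 42.7% of 1219 UMIs in the top 31. Of its 10 genes at 50 CPM, Tiam2, Nfix and Sox5 were above the medial gated cells in all 7 embryos and 3 were below. Against all other kept barcodes 0 of 15 were above and 9 were below. What part of the UMIs of the glutamatergic list came from another cell type was not tested. At least 3 UMIs of glutamatergic genes, counted over fewer genes than that list, were found in 23 members. Of these, 7 were among the 169 members of mutants and 16 among the 142 members of controls. At least 3 UMIs of the radial glial genes Fabp7 and Slc1a3 were found in 20 members, 8 in mutants and 12 in controls. The 12 radial glial genes were all detected, and they summed to 554 to 1735 CPM in mutants and 927 to 3152 CPM in controls. Over all 7 embryos they summed to 1447 ± 845 CPM in members and 779 ± 773 CPM in medial gated cells. Of 9 at 50 CPM, Vim, Pax6 and Dbi were above the medial gated cells in all 7 embryos and 0 were below. Against all other kept barcodes 0 of 9 were above and 4 were below. A haemoglobin Hbb-bs UMI was found in 28 members, 16 in mutants and 12 in controls, and 1 barcode of mutant 10 gave 173 of the 265 Hbb-bs UMIs there. Microglial genes summed to 0 CPM in every mutant, and to at most 140 CPM in controls. The striatal genes Foxp1, Meis2 and Tshz1 averaged 79.3 ± 37.1, 189 ± 85.1 and 146 ± 36.8 CPM in members, and Drd2 was at 0. The 18 striatal and lateral eminence genes summed to 600 ± 246 CPM in members. They summed to 305 ± 168 CPM in medial gated cells and 625 ± 93.6 CPM in all other kept barcodes. Of 4 at 50 CPM, Pax6 was above the medial gated cells in all 7 embryos and 0 were below. Against all other barcodes Tshz1 was above and 1 was below. The part of lateral eminence cells was not tested. Oligodendrocyte precursor and endothelial genes summed to at most 47.7 and 77.4 CPM in any embryo. The deepest member barcode held 24376 UMIs, which was 17.7% of the member UMIs of control 14. No doublet caller was applied, and barcodes above 3 times the median of their library, 27 members in all, were left out as an alternative.

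Members with and without each mark were compared over 120 listed genes outside the rule that were detected in members. The difference ran 1 way in all 7 embryos for 5 of these genes with Npas1 (4.17%), 4 with Adarb2 (3.33%), and 1 each with Prox1 and Htr3a (0.833%). These shares cover listed genes only, with no share over all genes to set them against. The genes below are thus given by their values and not read as traits of the members. Members with a Npas1 UMI averaged 987 ± 196 CPM of Cnr1 and members without one 460 ± 146 CPM, at median depths of 1565 and 1644 UMIs. They were likewise higher for Slc32a1, at 160 ± 76.6 and 50.8 ± 31.2 CPM, and for Erbb4, at 953 ± 195 and 590 ± 280 CPM. Sp9 was lower with Npas1, at 42.7 ± 36.2 and 110 ± 28.1 CPM. Members with Adarb2 averaged 168 ± 86.6 CPM of Syt1, the calcium sensor of vesicle release, and those without it 56.6 ± 27.9 CPM. Slc32a1 was at 129 ± 34.5 and 42.5 ± 64.9 CPM with and without Adarb2. The radial glial genes Fabp7, Slc1a3, Vim, Sox9 and Pax6 ran the other way, each lower with Adarb2 in 6 of 7 embryos. The rest of the 12 listed radial glial genes did not run together. Ptprz1 was higher with Adarb2 in 5 of 7 embryos and Dbi in 4, while Hes5 was higher in 3 and lower in 3. Mfge8, Aldoc, Gfap and Hes1 were lower in 4, 4, 3 and 2 embryos and higher in 3, 2, 2 and 1. Fabp7 was at 91.7 ± 106 and 580 ± 906 CPM with and without Adarb2, Slc1a3 at 45.1 ± 44.7 and 185 ± 124 CPM, Vim at 196 ± 123 and 472 ± 276 CPM, and Sox9 at 49.8 ± 37.8 and 108 ± 48.6 CPM. Their part in the split was not tested. With Prox1 the 1 gene was the striatal factor Foxp1, at 36.6 ± 20.4 and 150 ± 109 CPM, and with Htr3a it was the immediate early gene Fosb, at 255 ± 118 and 141 ± 86.2 CPM. Median depth with and without the mark was 1612.5 and 1565 UMIs for Adarb2, 1671 and 1530.5 for Prox1, and 1536 and 1746.5 for Htr3a. Splitting by a mark that the rule requires in sum makes the groups depend on each other, so these are descriptions with no test.

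The first question was whether mutants had fewer or more of these cells. Members numbered 47, 42, 46 and 34 in mutants 10, 11, 12 and 17, and 42, 56 and 44 in controls 14, 15 and 16. Their share of kept barcodes was 2.22%, 1.33%, 1.24% and 0.934% in the mutants, with exact Clopper-Pearson 95% intervals from 1.64% to 2.95% in mutant 10 and from 0.648% to 1.30% in mutant 17. It was 1.91%, 1.44% and 1.03% in the controls, with intervals from 1.38% to 2.57% in control 14 and from 0.747% to 1.38% in control 16. The groups overlapped over most of their range, and these intervals cover counting error only. The mean was 1.43 ± 0.554% in mutants and 1.46 ± 0.440% in controls (SD over 4 and 3 embryos). The difference was -0.0251 percentage points (two-sided exact permutation p = 1). With 35 splits, a p counted in a single direction cannot fall below 0.0286. The two-sided p doubles the smaller of the p-values in each direction, so no outcome could have brought it below 0.05. The sign of the share difference turned when mutant 11, 12 or 17 or control 14 was left out, with values up to 0.200 points.

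Members were 47.5%, 43.8%, 52.3% and 46.6% of the caudal and medial gated cells together in mutants 10, 11, 12 and 17. They were 47.2%, 47.5% and 50.6% of them in controls 14, 15 and 16. The mean was 47.5 ± 3.54% in mutants and 48.4 ± 1.88% in controls, and the difference of -0.890 points was smaller than the spread between embryos (two-sided exact permutation p = 0.8). It turned to 0.366 points without mutant 11 and to 0.194 points without control 16. With each cell thinned to 1000 UMIs, which left out 3778 shallower barcodes in mutants and 2629 in controls, the share of kept barcodes was 1.00 ± 0.245% in mutants and 0.851 ± 0.409% in controls (two-sided exact permutation p = 0.629). The order of the means thus turned, with both differences inside the spread.

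**Figure D3:**
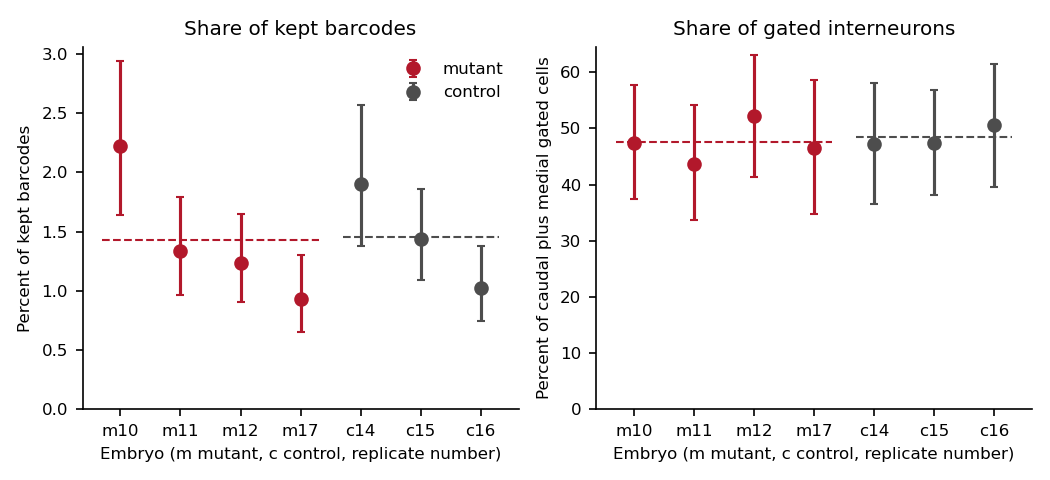
Caudal eminence type interneurons as a percent of kept barcodes (left) and of caudal plus medial gated cells (right) in each embryo, with exact 95% intervals for counting error and dashed group means. Mutants and controls overlap in both, at means of 1.43% and 1.46% on the left.

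The second question was whether expression in these cells differed by genotype. UMIs were summed over the members of each embryo and compared with the quasi-likelihood test of edgeR. Of 3021 genes that passed the filter on low counts, 0 passed an adjusted p of 0.05 (Benjamini-Hochberg), which is 0% of those tested. At an unadjusted p below 0.05 there were 211 genes (6.98%), 107 higher (3.54%) and 104 lower (3.44%) in mutants. DESeq2 and limma voom also called 0 genes, with 70 and 218 at an unadjusted p below 0.05. The values of mutants and controls did not overlap for 209 genes (6.92%), with all mutants above in 86 (2.85%) and all below in 123 (4.07%). Without control 14 the edgeR test called 7 genes, namely Atf3, Gm26917, Hspa5, Jun, Slit1, Syt11 and Tnc, and without control 16 it called Jun alone. The genes below are therefore described by their values, and none of them passed the test with all 7 embryos.

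The genes with the smallest p among those lower in mutants included Fos, Jun, Gria1 and Syt1. Fos, an immediate early gene of the AP-1 complex, was at 248, 400, 415 and 350 CPM in mutants 10, 11, 12 and 17, against 601, 646 and 638 CPM in controls 14, 15 and 16. All 4 mutants were below all 3 controls, at means of 353 ± 75.5 and 629 ± 24.0 CPM. The log2 fold change was -0.83 (SE 0.21, edgeR adjusted p = 0.165). It was -0.40 in members with 0 UMIs of Neurod6 (edgeR adjusted p = 0.840) and -0.55 without barcodes above 3 times the library median (edgeR adjusted p = 0.672). The 17 glutamatergic genes summed to 1419 to 1620 CPM in mutants and 1666 to 1967 CPM in controls, without overlap, and their part in the Fos difference was not tested. Its AP-1 partner Jun was at 804, 774, 955 and 875 CPM in mutants and 1101, 1939 and 944 CPM in controls. Mutant 12 was above control 16, and the log2 fold change was -0.62 (SE 0.16, edgeR adjusted p = 0.165). It was -0.24 without control 15 (edgeR adjusted p = 0.916). In medial gated cells of the same embryos both genes passed the test, Jun at a log2 fold change of -0.94 (edgeR adjusted p = 0.0140) and Fos at -0.93 (edgeR adjusted p = 0.0311), as 2 of 2645 genes (0.0756%). The test of the difference between the 2 kinds of interneuron did not call them, with edgeR adjusted p = 0.966 for Jun and 0.996 for Fos.

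Gria1 was at 17.1, 77.4, 55.4 and 31.8 CPM in mutants against 138, 162 and 105 CPM in controls. These rest on 2, 6, 4 and 2 UMIs in mutants and 19, 22 and 12 UMIs in controls, and 13 of the 19 in control 14 came from the barcode of 24376 UMIs. The log2 fold change was -1.61, and -0.84 with 1 UMI of the medial marks allowed (edgeR adjusted p = 0.187 and 0.704). Syt1 was at 68.4, 103, 69.2 and 79.6 CPM in mutants against 225, 176 and 175 CPM in controls, with no overlap. Its log2 fold change was -1.24 (SE 0.36, edgeR adjusted p = 0.212), and the same barcode gave 11 of its 31 UMIs in control 14.

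The 5 genes with the smallest p among those higher in mutants were Gm26917, Sbf1, Slit1, Klhl13 and Evi5l. Slit1 was at 248, 206, 332 and 286 CPM in mutants 10, 11, 12 and 17, against 188, 103 and 87.4 CPM in controls 14, 15 and 16. All mutants were above all controls, and no cell held more than 4 of its 137 UMIs. The log2 fold change was 1.07 (SE 0.30, edgeR adjusted p = 0.187). Sbf1, a myotubularin-related gene, averaged 148 ± 62.3 CPM in mutants and 53.0 ± 19.4 CPM in controls, with no overlap. Klhl13, an adaptor of a cullin ubiquitin ligase, averaged 152 ± 47.2 and 60.7 ± 29.3 CPM in mutants and controls, and Evi5l, a Rab GTPase-activating protein gene, 184 ± 32.1 and 88.1 ± 27.0 CPM. Neither overlapped between the groups, and the Evi5l log2 fold change of 1.13 was 0.66 without very deep barcodes. The long noncoding RNA Gm26917 averaged 343 ± 134 CPM in mutants and 165 ± 88.1 CPM in controls, with mutant 17 below control 14. How reads that match several genomic copies were counted is not given in the sources used here, so this gene is uncertain. Its log2 fold change of 1.06 was 0.69 with at most 5% mitochondrial UMIs.

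**Figure D4:**
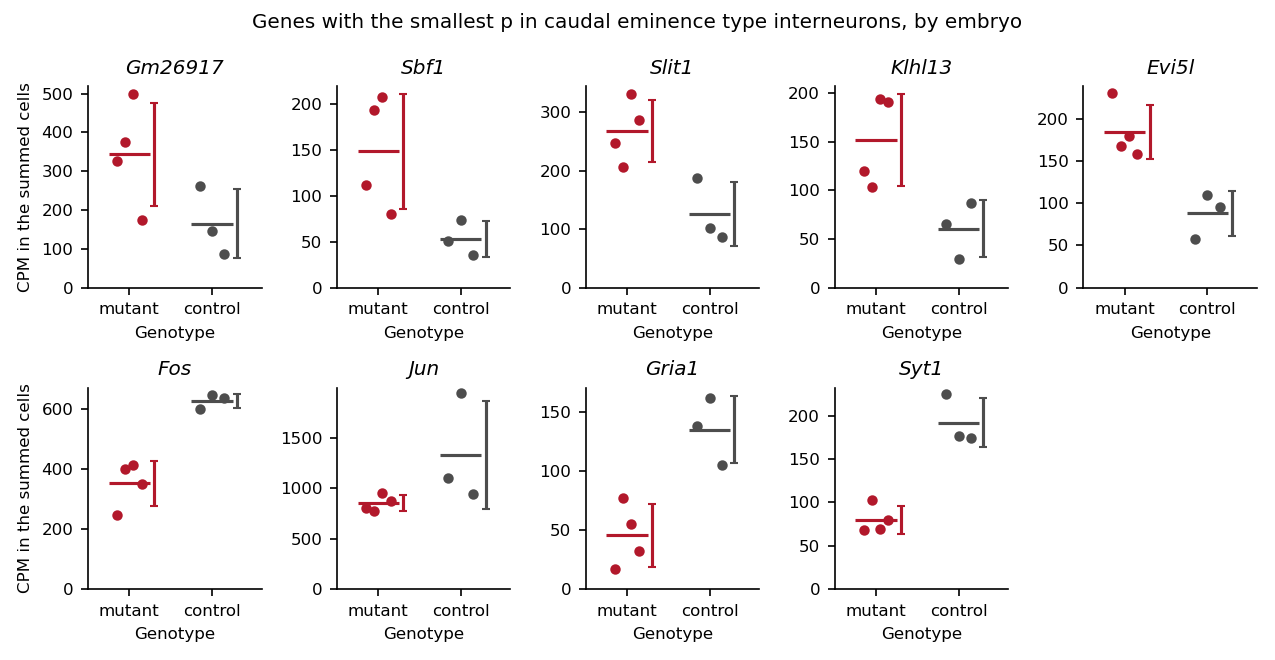
Level (CPM in the summed cells) of 5 higher and 4 lower genes among those with the smallest p in caudal eminence type interneurons, 1 point per embryo, with group means as lines and the SD as error bars beside them. No gene passed the adjusted test with all 7 embryos. Fos is at 248 to 415 CPM in the mutants and at 601 to 646 CPM in the controls.

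In mm10, with the GENCODE M21 annotation of each whole gene, Fos lies at chr12:85473890-85477273 on the plus strand and Jun at chr4:95049034-95052222 on the minus strand. Slit1 lies at chr19:41600257-41743665 and Syt1 at chr10:108497650-109010982, both on the minus strand. Nr2f2 lies at chr7:70351944-70366735 on the minus strand and Ash1l at chr3:88950622-89079375 on the plus strand. The deposited counts give whole genes, with no value per exon or untranslated region.

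Counted by function, no list held a gene that passed adjustment. Of 21 immediate early genes 8 passed the filter, 1 with a positive and 7 with a negative log2 fold change, and their median was -0.57 against -0.0015 over all genes tested. At an unadjusted p below 0.05, 4 were lower and 1, Fosb, was higher, and 0 passed adjustment. Over all 3021 genes tested, 3.44% were lower and 3.54% higher at that level. Dusp1, a phosphatase of MAP kinases, averaged 48.8 ± 23.2 CPM in mutants and 130 ± 21.3 CPM in controls, without overlap. Fosb averaged 229 ± 97.6 CPM in mutants and 146 ± 25.9 CPM in controls, with overlap. All 8 tested heat shock genes had negative values, with a median of -0.29 against -0.0015 over all genes tested. Hsp90aa1 averaged 364 ± 86.3 CPM in mutants and 588 ± 72.5 CPM in controls. In all other kept barcodes, Hsp90aa1 averaged 454 ± 41.5 CPM in mutants and 584 ± 45.3 CPM in controls. Of 12 tested synaptic genes 4 were positive and 8 negative, with a median of -0.26. The vesicle protein gene Syt4 averaged 127 ± 33.6 CPM in mutants and 229 ± 58.8 CPM in controls. Depth was lower in mutants as well, with 1506 ± 310 UMIs per median member in mutants and 2059 ± 338 in controls, and its part in them was not tested.

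Genes of interneuron identity and migration showed no call. Of 5 tested caudal eminence genes outside the rule, 1 was positive and 4 were negative, with a median of -0.11. Nr2f2 averaged 277 ± 63.2 CPM in mutants and 261 ± 111 CPM in controls, and Cnr1 643 ± 149 and 693 ± 34.5 CPM. Id2, an inhibitor of bHLH factors, was at 8.55, 64.5, 83.1 and 47.7 CPM in mutants and 152, 110 and 140 CPM in controls, with no overlap and a log2 fold change of -1.48 (SE 0.45, edgeR adjusted p = 0.246). The barcode of 24376 UMIs gave 15 of its 21 UMIs in control 14. Of 7 tested GABAergic genes 2 were positive and 5 negative, with a median of -0.01, and of 12 migration genes 5 and 7, with a median of -0.03. The guidance receptor gene Nrp1 averaged 134 ± 62.3 CPM in mutants and 70.4 ± 29.1 CPM in controls. The 8 genes whose UMIs the rule requires all had positive values, with a median of 0.33. At an unadjusted p below 0.05, 3 of them were higher, beside 3.54% of all 3021 genes tested. They chose the members, and median depth was lower in mutants, so nothing is read from these values, and the part of depth in them was not tested. Gad1 among them averaged 484 ± 48.0 CPM in mutants and 300 ± 55.1 CPM in controls.

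Ash1l was at 256, 271, 291 and 159 CPM in members of mutants 10, 11, 12 and 17, against 283, 367 and 306 CPM in members of controls 14, 15 and 16. Mutant 12 was above control 14, and the log2 fold change was -0.33 (SE 0.26, edgeR adjusted p = 0.851). It was -0.0086 with at most 5% mitochondrial UMIs and -0.58 without very deep barcodes. The labels do not name the floxed exons and the assay reads the 3' ends of transcripts, so this level does not check the deletion. Of 15 tested histone methylation genes 9 were positive and 6 negative, with a median of 0.10. Among the 5 genes called in all other kept barcodes (0.0388% of 12875), namely Spr, Esr1, Npy, Lmo3 and Ppp1r3c, none had enough member UMIs to pass the filter. Spr, an enzyme of biopterin synthesis that lies near Emx1, had 1, 2, 4 and 4 UMIs in mutants and 2, 3 and 2 UMIs in controls. It averaged 38.3 ± 25.7 CPM in mutant members and 18 ± 3.80 CPM in control members, against 72.9 ± 12.4 and 29.0 ± 1.65 CPM in the other barcodes of mutants and controls. The oestrogen receptor gene Esr1 had 0 UMIs in all members, while it averaged 9.70 ± 3.33 CPM in other barcodes of mutants and 0.900 ± 0.610 CPM in those of controls. A count of 0 over all mutant members together allows a level of up to 9.10 CPM (3 counts), close to the level in the other mutant barcodes. Npy had 0, 3, 1 and 1 UMIs in mutants and 0, 5 and 0 UMIs in controls.

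The last question was whether the genotype effect differed between these cells and others. Against medial gated cells, 3 of 3556 genes (0.0844%) passed the edgeR test of the difference of effects, with 173 (4.87%) at an unadjusted p below 0.05. All 3 were genes of radial glia. They were Fabp7, a fatty acid binding protein, Tnc, the matrix protein tenascin C, and Slc1a3, a glutamate transporter. Fabp7 had 14, 20, 2 and 14 UMIs in members of mutants 10, 11, 12 and 17, and 15, 159 and 30 UMIs in members of controls 14, 15 and 16. A single barcode of 8279 UMIs gave 134 of the 159 in control 15. In medial gated cells a single barcode of 5225 UMIs gave 158 of the 163 Fabp7 UMIs of mutant 11. The log2 difference of effects was -3.67 for Fabp7, -4.48 for Tnc and -4.00 for Slc1a3 (edgeR adjusted p = 2.23e-08, 1.58e-06 and 0.0147). Without barcodes above 3 times the library median, Fabp7 was at -1.85 (edgeR adjusted p = 0.333) and 0 genes passed. Fabp7 and Tnc passed with any 1 embryo left out. Slc1a3 lost its call without mutant 10 or 11 or without any single control, with edgeR adjusted p from 0.0585 to 0.394.

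Against all other kept barcodes, Reln alone of 11930 genes passed (0.00838%), while 560 (4.69%) had an unadjusted p below 0.05. It had a log2 difference of effects of -1.36 (SE 0.30, edgeR adjusted p = 0.0473). Reln was at 137, 64.5, 152 and 79.6 CPM in members of mutants 10, 11, 12 and 17, and at 181, 331 and 96.1 CPM in members of controls 14, 15 and 16. The groups overlapped in members, at means of 108 ± 42.8 and 203 ± 119 CPM, and in all other barcodes the means were 520 ± 126 CPM in mutants and 404 ± 67.2 CPM in controls. The member values rest on 16, 5, 11 and 5 UMIs in mutants and 25, 45 and 11 UMIs in controls, and 1 barcode gave 17 of the 45 in control 15. Without control 15 the difference was -0.64 (edgeR adjusted p = 1). The call was also lost without mutant 10, 11 or 17 (edgeR adjusted p = 0.558, 0.521 and 0.0789). With 1 embryo left out, 0 to 7 genes were called, and the 7 without mutant 17 did not include Reln. Of 8 listed genes of Cajal-Retzius cells, a main source of Reln, 6 were detected in members, and they summed to 111 to 166 CPM in mutants and 157 to 353 CPM in controls. Reln itself gave 118 of their 135 UMIs, Calb2 gave 7, Ndnf 5, Cacna2d2 3, and Trp73 and Lhx5 1 each, while Lhx1 and Ebf3 were at 0. Their part in the Reln result was not tested.

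**Figure D5:**
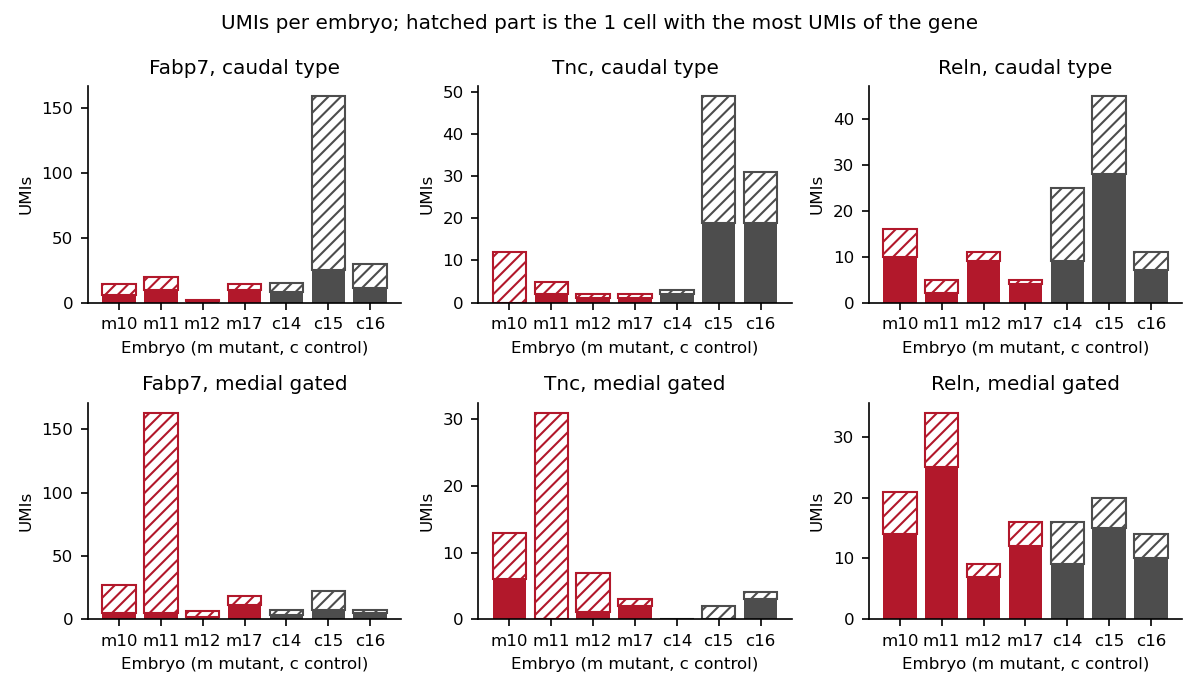
UMIs of Fabp7, Tnc and Reln per embryo in caudal eminence type interneurons (top row) and medial eminence gated cells (bottom row), mutants in red and controls in grey. The hatched part of each bar is the 1 cell with the most UMIs of that gene, which holds 134 of 159 Fabp7 UMIs in control 15 and 158 of 163 in mutant 11.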

How the data were processed

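Members, lists and tests were chosen with earlier results of these data known. The authors deposited 1 table of raw UMI counts per library, whole numbers that were not normalized. Reads were aligned with STAR to mm10, per the submitters' processing notes; the version, annotation, barcode rule and strand use: not given in the sources used here. The deposited tables held 50191 barcodes and 23413 gene symbols, and 7083225 to 11859209 UMIs per library. Group and replicate number came from the labels. Counts were summed per embryo and population and compared with edgeR 4.0.16 (TMM scaling, its filter on low counts, quasi-likelihood test, adjusted p of 0.05) in R 4.3.3, each population on its own. Differences of effect used an interaction term with the embryo as a block. Shares were compared with exact permutation tests (scipy 1.17.1). DESeq2 1.42.0, limma 3.58.1 voom, other gates, a thinning to 1000 UMIs and the loss of each embryo were alternatives. Fits were tested on simulated data. There the genotype test in members recovered 49 of 88 genes changed by a log2 of 1 (55.7%) and 81 of 81 changed by 2. It also called 12 unchanged genes, so a call of 0 genes does not exclude changes of a log2 of 1. Genes were named by rule: the 5 in each direction with the smallest p, every gene called in a test of a difference, Ash1l, Esr1, Spr and Npy, the 15 leading genes against all other barcodes, the 10 in each direction against medial gated cells, and examples from 23 lists; some of these genes are not reported here. Of 303 listed genes 4 were matched by an older symbol and 1 had no row. The marks that split the members, and single barcodes, were singled out after their values were seen. Embryos were the replicates, and intervals cover counting error only.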

Additional observations from a re-analysis of the deposited data

Results flagged for a closer look

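The genotype effect differed between caudal eminence type interneurons and medial eminence gated cells for 3 genes by edgeR's test of the difference. The log2 difference, mutant over control in members minus the same in medial gated cells, was -3.67 for Fabp7, -4.48 for Tnc and -4.00 for Slc1a3. Single barcodes gave 30 of the 49 Tnc UMIs in members of control 15 and all 31 Tnc UMIs in medial gated cells of mutant 11. These are the same 2 barcodes, of 8279 and 5225 UMIs, that held most of the Fabp7 there, and the part of mixed or misassigned cells was not tested.

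The genotype effect of Reln differed between members and all other kept barcodes, with a log2 difference of -1.36. A Reln UMI was found in 46 of the 311 members, with 5, 2, 9 and 5 of them in mutants 10, 11, 12 and 17 and 8, 12 and 5 in controls 14, 15 and 16.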

How the results depend on the processing

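No paired analysis was possible because the replicate numbers of mutants and controls are not shared. The count of genes called by genotype, 0 with all cells, was 1 with no filter on low counts (Atf3), 1 without very deep barcodes (Ccnd2), and 0 to 7 with 1 embryo left out. For the difference from medial gated cells, 3 genes were called, against 1 at a mark sum of 3 or more (Gria1, none of the 3, with Fabp7 at edgeR adjusted p = 0.616 and Tnc at 0.283), 1 with Neurod6 at 0 (Tnc), 0 without very deep barcodes and 2 to 3 with 1 embryo left out. With at most 5% mitochondrial UMIs they were Fabp7, Ptprz1 and Tnc, with Slc1a3 at 0.179. For the difference from all other barcodes, 1 gene was called, against 0 with RLE size factors, with no filter, at 300 genes, with 1 UMI of medial marks allowed or with Neurod6 at 0, 3 at a mark sum of 3 or more (Atf3, Gria1 and Neo1), 2 without very deep barcodes (Ccnd2 and Tnc), and 0 to 7 with 1 embryo left out; the 1 called was Atf3 at 800 genes and Tnc with at most 5% mitochondrial UMIs. Reln lost its call in 13 of 17 alternatives. The share difference of -0.0251 points was 0.0233 without very deep barcodes, 0.153 after thinning and -0.289 to 0.200 with 1 embryo left out. The difference among gated interneurons of -0.890 points was 1.56 without very deep barcodes, 5.11 after thinning and -2.47 to 0.366 with 1 embryo left out. Leaving out gated cells with 3 or more UMIs of Fabp7 and Slc1a3, an alternative chosen after seeing the data, rests on the very genes called against medial cells: it gave 0 such calls, 2 against all other barcodes (Crym and Reln), a share difference of 0.0424 and 0.965 points among gated interneurons. The causes were not tested. With 62839 to 138028 member UMIs per embryo, a gene below 21.7 to 47.7 CPM could read 0 by counting alone.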

Other observations

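Atf3, a stress and injury response factor, was not named by the rule and was singled out after its values were seen. It had 0, 5, 0 and 1 UMIs in members of mutants 10, 11, 12 and 17, and 6, 28 and 28 UMIs in members of controls 14, 15 and 16. A barcode of 2578 UMIs gave 15 of the 28 in control 15, and the same barcode held all 7 member UMIs of the microglial receptor gene Csf1r. Atf3 was called lower in mutants with no filter on low counts and without control 14. In medial gated cells it averaged 4.87 ± 9.74 CPM in mutants and 20.4 ± 27.8 CPM in controls.

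Genes beside Emx1 on chromosome 6 gave 4 tested genes out of 19, with 2 positive and 2 negative log2 fold changes and a median of 0.06. The labels name the Cre line but not the site where the Cre lies. Islr2, a membrane protein of growing axons, averaged 422 ± 123 CPM in mutant members and 254 ± 32.5 CPM in control members, with a log2 fold change of 0.77 (SE 0.24, edgeR adjusted p = 0.246). In all other kept barcodes it averaged 584 ± 72.5 CPM in mutants and 495 ± 73.2 CPM in controls.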
